A study of Mus musculus with 8 samples.

Results

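The IL-10 genes described here are 8 mouse genes: Il10, which encodes interleukin 10, its receptor chains Il10ra and Il10rb, the transcriptional repressors Nfil3, Sbno2 and Etv3, the signaling inhibitor Socs1, and Il4ra, a receptor chain for interleukin 4. They were chosen by name, with earlier results of these data known, and found on the array through the gene symbols of its probes. All 8 genes had a probe, 10 probes in total, and 7 genes with 8 probes had an intensity on every array, out of 9987 named genes and 13853 probes measured. Etv3 has no level here, because its probe was blank on all 8 arrays, and 1 of the 2 Sbno2 probes was blank as well. Etv3 lies at chr3:87525577-87540158 and encodes a repressor of the ETS family (all positions are those of RefSeq on GRCm38.p6).

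The skin came from female C57BL/6JNarl mice that were 6 to 8 weeks old. Each mouse received 100 µL of acetone on its abdominal skin, either as the solvent alone or with shikonin, a naphthoquinone from Lithospermum roots, dissolved at 10 µg/µL, and the skin was taken after 4 h or 24 h. Each combination of treatment and time had 2 arrays, which makes 4 groups and 8 arrays, and acetone reached the skin of every group. The array was the 1-color Mouse OneArray, on which the brightness of the Cy5 dye at a probe, its intensity, stands for the RNA level.

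Interleukin 10 is a cytokine of macrophages, T cells and other leukocytes that restrains inflammation. It binds a receptor built from IL-10RA, the chain that gives ligand specificity, and IL-10RB, a chain shared with other cytokines of its family, and the kinases JAK1 and TYK2 then activate the transcription factor STAT3. In macrophages, STAT3 induces further genes, among them the repressors NFIL3, SBNO2 and ETV3 and the inhibitor SOCS3, which together lower the transcription of inflammatory cytokines, and IL-10 also raises the IL-4 receptor chain IL-4RA there. In skin, IL-10 is known for limiting contact and irritant reactions.

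The arrays of a group correlated with each other at Pearson's r of 0.986 to 0.992 over all probes, and array medians lay between 1129 and 1130. A floor was set at 203.4, or 7.67 in log2, the level below which 5% of all values lay, and lower intensities were lifted to it. Groups were compared by limma on log2 intensities. P-values were adjusted by the Benjamini-Hochberg method over the 13853 measured probes, and a gene is said to have risen or fallen only where the adjusted p was under 0.05. A fold is given as "at least" where both dimmer arrays were at the floor or a brighter array was saturated. The methods describe the arrays of a group as duplicates on separate chips and the study speaks of independent experiments, but neither these nor the labels say whether the duplicates were different mice, so the p-values measure the spread between arrays, which may be technical in part or in whole. Keratinocyte markers fitted the skin label, with all 15 of 15 measured and summed intensities of 310062 to 323823 on the acetone arrays, while 3 measured liver genes summed to between 1231 and 2694 on the 8 arrays.

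All 7 measured genes rose with shikonin at both times. At 4 h, 7 of 7 were higher, while 21.2% of all probes were called higher and 25.4% lower. At 24 h it was again 7 of 7, against 29% of all probes higher and 32.3% lower. The Socs1 call at 4 h was made on the brighter of its probes and the dimmer one gave -0.14 (limma adjusted p = 0.526), the Il10rb call at 4 h was lost without any of 3 of the arrays (limma adjusted p up to 0.0844), and the Il10 calls at both times were lost with a higher floor. The median log2 fold change of the 7 genes was 1.52 at 4 h and 1.75 at 24 h, and over all 9987 named genes it was -0.07 and -0.05. For these 7 genes, with Socs1 read on its brighter probe, both shikonin arrays lay above both acetone arrays of the same time. Of all probes, 33.3% had this order at 4 h and 38.3% at 24 h. The dimmer Socs1 probe had the reverse order at 4 h. The study counted genes that changed at least 2-fold in both experiments, and by that criterion, taken here over arrays of the same replicate number, 4 of the 7 were higher at 4 h (Il10ra, Nfil3, Sbno2 and Il4ra; 7.38% of all probes) and all 7 at 24 h (12.5% of all probes). Skin is a mixture of cells, so more cells of a type that expresses a gene and more RNA of that gene per cell cannot be told apart in these values.

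**Figure D1:**
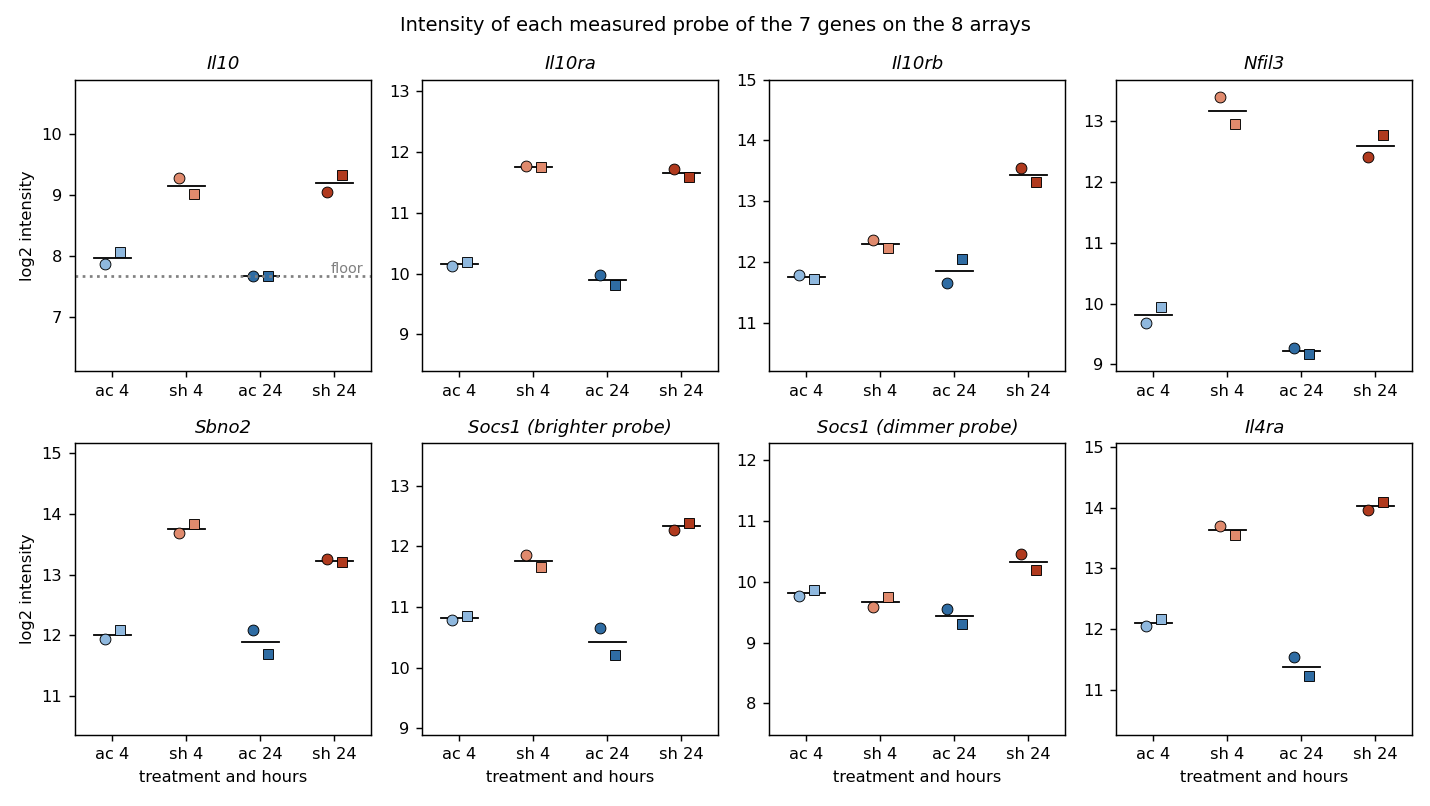
Log2 intensity of each measured probe (vertical axis) on the 8 arrays, by group (ac, acetone; sh, shikonin; 4 or 24, hours). Circles are replicate 1, squares replicate 2 and black bars group means; each panel has its own vertical range, and the dotted line marks the floor at 7.67, where both acetone 24 h arrays of Il10 lie.

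Il10 lies at chr1:131019845-131024970. Its probe read 232 and 267 in acetone-treated skin at 4 h and 619 and 521 in shikonin-treated skin. At 24 h it read 141 and 100.3 with acetone, both under the floor, and 530.4 and 645 with shikonin. The 4 shikonin values were thus alike at both times and did not overlap with those of acetone, of which the 24 h ones were the lowest. Il10 was 2.28-fold higher at 4 h (log2 fold change 1.19, standard error 0.16, limma adjusted p = 3.57e-04) and at least 2.87-fold higher at 24 h (at least 1.52, limma adjusted p = 3.63e-05). The mean log2 levels with shikonin, 9.15 and 9.19, stayed below the median of 10.14 over all values, so Il10 was a dim probe in every group. With a higher floor, at the 25th percentile of all values, the log2 changes shrank to 0.32 and 0.36 and passed at neither time (limma adjusted p = 0.111 and 0.0636). With no floor, the 24 h change was 2.30.

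Il10ra, at chr9:45253837-45269149, encodes the chain that binds IL-10 with specificity. Its probe read 1114 and 1164 on the acetone 4 h arrays and 3482 and 3444 on the shikonin 4 h arrays. The 24 h arrays read 1012 and 904 with acetone and 3363 and 3082 with shikonin. These are 2 clearly separate levels, one for acetone and one for shikonin, with little difference between the times. Il10ra rose 3.04-fold at 4 h (log2 fold change 1.60, standard error 0.13, limma adjusted p = 1.17e-05) and 3.37-fold at 24 h (1.75, limma adjusted p = 2.32e-06). The effect at 24 h less that at 4 h was 0.15, with a 95% confidence interval of -0.25 to 0.55 (limma adjusted p = 0.539).

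Il10rb, at chr16:91406157-91425834, encodes the shared chain, which also serves the receptors of IL-22 and of the lambda interferons. It read 3535 and 3367 with acetone and 5245 and 4810.3 with shikonin at 4 h. At 24 h the acetone arrays read 3236 and 4236, and the shikonin arrays 11924 and 10247. The 24 h shikonin arrays stood well above the other 6, and the 4 h shikonin arrays stood above the acetone arrays by a small margin. The rise was 1.46-fold at 4 h (log2 fold change 0.54, standard error 0.15, limma adjusted p = 0.0136) and 2.99-fold at 24 h (1.58, limma adjusted p = 1.28e-05), and the effects differed by 1.04 (standard error 0.21, limma adjusted p = 0.00344). Among the 7 genes, Il10rb had the smallest change at 4 h, and that call was lost without acetone 4 h replicate 1, acetone 4 h replicate 2 or shikonin 4 h replicate 1 (limma adjusted p = 0.0548, 0.0844 and 0.0780). So the receptor chains followed different courses: the log2 level of Il10ra in shikonin-treated skin was -0.11 at 24 h relative to 4 h (limma adjusted p = 0.521), while Il10rb rose by 1.14, or 2.20-fold (limma adjusted p = 2.14e-04).

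Nfil3, at chr13:52967209-52982878, encodes a basic leucine zipper repressor that also binds the DNA sites of the circadian PAR factors. It had the largest change of the 7 genes at both times. Its probe read 823 and 981 with acetone at 4 h, against 10793 and 7913 with shikonin. At 24 h it read 614 and 579 with acetone, against 5469 and 7019.6 with shikonin. Every shikonin array was far above every acetone array, and within each treatment both 24 h arrays lay below both 4 h arrays. Nfil3 rose 10.3-fold at 4 h (log2 fold change 3.36, standard error 0.19, limma adjusted p = 1.37e-06) and 10.4-fold at 24 h (3.38, limma adjusted p = 4.12e-07). It stood at place 84 from the top of 13853 probes at 4 h and 187 at 24 h when probes were ordered by log2 fold change. The difference of the effects was 0.02, with a 95% confidence interval of -0.58 to 0.61 (limma adjusted p = 0.970), since the level fell over time by 0.59 with acetone and by 0.58 with shikonin.

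Sbno2, at chr10:80056992-80106108, encodes a homologue of the Drosophila strawberry notch helicase and is induced through STAT3 in macrophages. Its measured probe read 3933 and 4351 with acetone and 13158 and 14628 with shikonin at 4 h. At 24 h it read 4353 and 3306 with acetone and 9761 and 9434 with shikonin. Both shikonin groups lay above all acetone arrays, the 4 h shikonin arrays were the highest, and the acetone groups overlapped with each other. The rise was 3.35-fold at 4 h (log2 fold change 1.75, standard error 0.14, limma adjusted p = 1.35e-05) and 2.53-fold at 24 h (1.34, limma adjusted p = 2.95e-05). In shikonin-treated skin the level fell by 0.53 from 4 h to 24 h (limma adjusted p = 0.0120). The effects themselves differed by -0.41, which did not pass (limma adjusted p = 0.127) but passed without acetone 24 h replicate 2 (-0.61, limma adjusted p = 0.0207).

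Promoter sequence was looked up in a RefSeq table for GRCm38.p6, which held 7 promoters for 5 of the 8 genes, and the 250 bases before each transcript start were searched on both strands. The motifs were TTCNNNGAA (the STAT site, in 7.02% of 32851 promoters), TGANTCA (AP-1, 6.75%), GGGANTTCC (NF-kB, 1.43%), TTANGTAA (NFIL3 and PAR factors, 2.06%) and the interferon-stimulated element (2.98%). The matching stretches are shown because STAT3 and related factors are the known inducers of these genes in other cells. Sbno2 has 3 promoters in the table, each with 1 match, and the capitals mark it on the strand of the gene, which is the minus strand.
Sbno2 promoter 1, STAT, chr10:80102703-80102748: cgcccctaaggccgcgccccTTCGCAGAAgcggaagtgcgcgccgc
Sbno2 promoter 2, STAT, chr10:80101188-80101231: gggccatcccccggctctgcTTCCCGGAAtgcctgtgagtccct
Sbno2 promoter 3, NF-kB, chr10:80075589-80075637: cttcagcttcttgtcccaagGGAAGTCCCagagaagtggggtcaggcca
The STAT matches lie 26 to 18 and 24 to 16 bases before their starts, and the NF-kB match, on the strand opposite to the gene, lies 178 to 170 bases before the third start. Which of these starts was used in skin was not measured. The promoters of Nfil3, Etv3 and Il4ra in the table held no match to these motifs.

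Socs1, at chr16:10783808-10785536, encodes a protein that binds and inhibits JAK kinases and is itself induced by interferons and other cytokines. Its promoter (minus strand) holds a pair of overlapping matches to the interferon-stimulated element, 83 to 68 bases before the start, on the strand opposite to the gene.
Socs1 promoter, chr16:10785584-10785639: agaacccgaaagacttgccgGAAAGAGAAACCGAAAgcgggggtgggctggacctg
The capitals mark both matches. Socs1 had 2 measured probes, which did not give the same result at 4 h. The brighter probe, which stands for the gene, read 1765 and 1847 with acetone and 3717 and 3249 with shikonin at 4 h, and 1605 and 1188 against 4964 and 5323 at 24 h. The dimmer probe read 869 and 931 with acetone and 773 and 867 with shikonin at 4 h, and 753 and 632 against 1409 and 1169.9 at 24 h. On both probes the 24 h shikonin arrays were the highest of the 8, but at 4 h the shikonin arrays lay above acetone on the brighter probe and just below it on the dimmer one, an order that 40.5% of all probes had.

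On the brighter Socs1 probe the rise was 1.92-fold at 4 h (log2 fold change 0.94, standard error 0.16, limma adjusted p = 0.00113) and 3.72-fold at 24 h (1.90, limma adjusted p = 6.41e-06). On the dimmer probe the change was -0.14 at 4 h (limma adjusted p = 0.526) and 0.90 at 24 h (limma adjusted p = 0.00107). The larger effect at 24 h was seen on both, by 0.95 on the brighter probe (limma adjusted p = 0.00806) and by 1.03 on the dimmer one (limma adjusted p = 0.00614). With the mean over both probes, the 4 h change of Socs1 was 0.40 (limma adjusted p = 0.0426).

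Il4ra, at chr7:125552271-125579474, encodes the chain that the IL-4 and IL-13 receptors share. It read 4228 and 4580.4 with acetone and 13272 and 12049 with shikonin at 4 h. At 24 h it read 2972 and 2402 with acetone, the lowest of the 8 arrays, and 15876 and 17436 with shikonin, the highest. The gap between the treatments thus widened from both sides. Il4ra rose 2.87-fold at 4 h (log2 fold change 1.52, standard error 0.13, limma adjusted p = 1.71e-05) and 6.23-fold at 24 h (2.64, limma adjusted p = 1.78e-07). The effects differed by 1.12 (standard error 0.18, limma adjusted p = 0.00108). From 4 h to 24 h the acetone level fell by 0.72 (limma adjusted p = 0.0042) and the shikonin level rose by 0.40 (limma adjusted p = 0.0288).

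**Figure D2:**
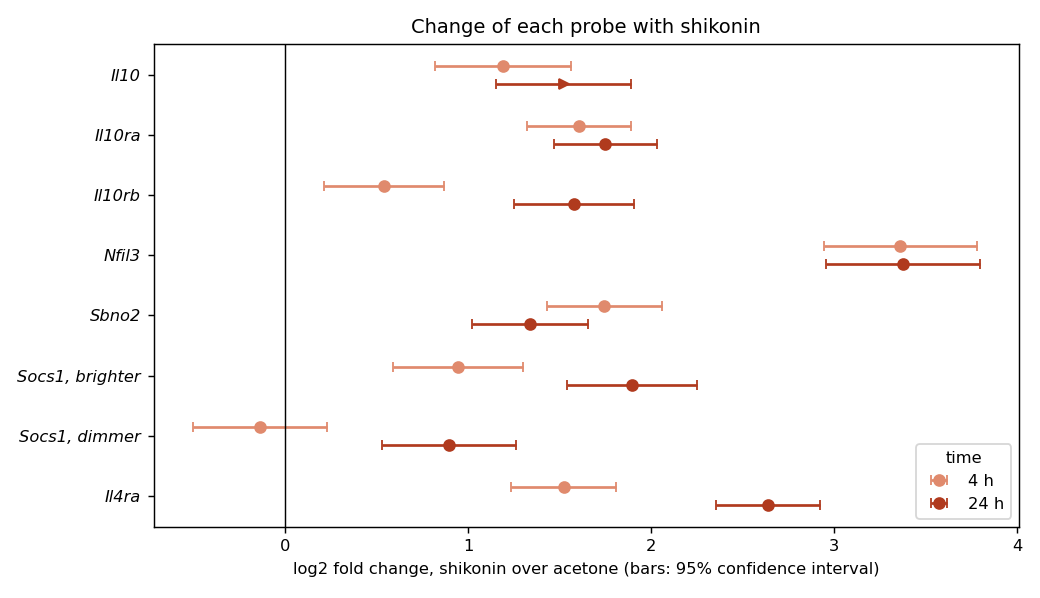
Log2 fold change of shikonin over acetone (horizontal axis) for each of the 8 measured probes at 4 h and 24 h. Points are limma estimates from 2 arrays a group, bars are 95% confidence intervals, and the triangle marks the lower bound of Il10 at 24 h; Nfil3 stands apart at 3.36 and 3.38, while Il10rb, Il4ra and both Socs1 probes lie further right at 24 h.

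The effect of shikonin was larger at 24 h than at 4 h for 3 of the 7 genes, Il10rb, Socs1 and Il4ra, and smaller for none. Of all probes, 21.1% were called higher in this signed difference, 24 h less 4 h, and 22.2% lower. Both shares also count probes that fell with shikonin. These 3 differences passed with any 1 array left out. Of the other 4 genes, Il10 had a difference of 0.33 (limma adjusted p = 0.278), which rests on the floor, and passed with no floor (1.11, limma adjusted p = 0.0164). Both comparisons also rest on the acetone arrays of their own time. Between those, 2 of the 7 genes were lower at 24 h than at 4 h, Nfil3 and Il4ra, against 14.2% of all probes, and none was higher (15.5%). Il10, at the floor on both acetone 24 h arrays, had a log2 change of -0.29 there (limma adjusted p = 0.206) and of -1.07 with no floor (0.0064). The Nfil3 call in acetone-treated skin was lost when either acetone 4 h array or either acetone 24 h array was left out (limma adjusted p between 0.0852 and 0.23), and also without either shikonin 24 h array, which takes part only in the estimate of the spread (0.0596 and 0.0598). Within shikonin-treated skin, 3 of 7 genes were higher at 24 h (Il10rb, Socs1 and Il4ra; 24.2% of all probes) and 2 were lower (Nfil3 and Sbno2; 23.4%). Of these, only the rise of Il10rb passed with any 1 array left out.

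The 7 genes differed from each other in their course over the 8 arrays. Pearson's r between pairs, on log2 values of 8 arrays that share 2 treatments and 2 times, ran from 0.59 for Il10rb and Sbno2 to 0.99 for Nfil3 and Il10ra. Il10rb stood apart, with r of 0.86 or less to each of the other 6, and the pairs without Il10rb had r of 0.86 or more. The genes most like a member were found in the same way among 9986 named genes, of which between 491 (Sbno2) and 733 (Il4ra) had r above 0.9 with it.

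Il10 was most like Gcnt2 (r = 0.996), Mmp8 (0.993), a neutrophil collagenase, and Ptgs2 (0.993), the inducible cyclooxygenase. Il10, Mmp8 and Ptgs2 each had 2 arrays at the floor, which enter these values as equal levels, and with no floor the 3 r were 0.967, 0.979 and 0.979. Il10ra was most like Jak2 (0.998), a cytokine receptor kinase, and Slc2a3 and Csrnp1 (both 0.997). Nfil3 was most like Gadd45a (0.998), a stress-induced growth arrest gene, Ptgs2 (0.998) and the protease Adamts4 (0.996). Il10rb went instead with Adipor1 (0.996), an adiponectin receptor, Arfgef2 (0.994) and Il15ra (0.993), the IL-15 receptor chain. The genes nearest to Sbno2 were Enc1 (0.995), Ipcef1 (0.994) and Mettl6 (0.993). Socs1 was most like Ncf4 (0.999), a subunit of the phagocyte oxidase, Smox (0.992) and the leukocyte gene Cd53 (0.991), and Il4ra like Slc15a3 (0.996), Smox (0.996) and the chemokine gene Ccl3 (0.995). Each r is over the same 8 arrays. It follows mostly the split between treatments, except for Il10rb, whose 24 h shikonin arrays stood well apart from the rest.

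Around the members, 8 of 10 genes on a list for the IL-10 signal path were measured. At 4 h 4 of them rose and at 24 h 6, none fell at either time, and the medians were 0.47 and 0.64. For comparison with the counts of this and the following lists, 21.2% of all probes rose and 25.4% fell at 4 h. At 24 h 29% rose and 32.3% fell. The lists, like the members, were chosen with earlier results of these data known. Stat3, the factor that carries the IL-10 signal, rose by 0.77 and 0.74 on the log2 scale (limma adjusted p = 7.31e-05 and 4.55e-05). Of the kinases of the IL-10 receptor, Jak1 was at -0.42 at 4 h (limma adjusted p = 0.105) and rose by 0.57 at 24 h, and Tyk2 was at -0.19 and 0.15 and passed at neither time. The largest changes on the list were those of Jak2, at 1.84 and 1.97. Jak2 serves other cytokine receptors, and it is among the genes counted as risen at both times. Stat5b rose by 1.30 and 0.71, Gsk3b by 0.77 and 0.46, and Pik3ca, a kinase subunit of the phosphoinositide path, was at 0.18 at 4 h (limma adjusted p = 0.514) and rose by 0.95 at 24 h.

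Among the cytokines and receptor chains of the IL-10 family, 4 of 11 were measured. Il24 rose by 4.15 at 4 h and by at least 3.93 at 24 h, and Il19 by at least 2.32 and at least 1.58. Il20 was at -0.09 at 4 h (limma adjusted p = 0.645) and fell by at least 1.95 at 24 h. Ifnlr1, the specific chain of the lambda interferon receptor that pairs with IL-10RB, rose by 0.52 at 4 h and fell by 0.61 at 24 h, so its change at 24 h was opposite to that of Il10rb. The difference of its effects was -1.13 (limma adjusted p = 0.00167).

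Of 18 genes known to act upstream of Il10 transcription, 14 were measured. The 4 h test called 8 of them up and 1 down, the 24 h test 6 up and 3 down, and their medians were 0.83 and 0.51. Tlr2, a receptor for bacterial lipoproteins, had the largest change at both times (2.35 and 3.79), and Cebpb, a myeloid transcription factor, rose by 1.88 and 1.71. Maf, a factor that activates Il10 in macrophages and T cells, rose by at least 0.75 and at least 1.79. Ahr, the aryl hydrocarbon receptor, fell by 1.35 and by 1.24. The zinc finger factor Sp1 fell by 0.43 at 24 h.

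Other genes that IL-10 induces in macrophages mostly moved as the members did. Of 21 genes, 19 were measured. At 4 h the calls were 13 up and 1 down (median 1.57), and at 24 h they were 18 up and 1 down (median 2.24). Hmox1, the heme oxygenase, rose by 3.39 and 2.71, and Gadd45a by 2.45 and 2.53. Some genes of macrophages passed at 24 h and not at 4 h: the Fc receptor gene Fcgr1 was at 0.15 at 4 h (limma adjusted p = 0.520) and rose by at least 4.98 at 24 h, and the scavenger receptor gene Msr1 was at -0.09 (limma adjusted p = 0.716) and rose by at least 4.32. For both, the difference of the effects passed (4.83 and 4.41, limma adjusted p = 1.39e-06 and 2.51e-06). Cd163, the hemoglobin scavenger receptor, fell by 1.38 at 4 h and rose by at least 2.22 at 24 h. The only gene of the list that fell at 24 h was Bcl6, a repressor (-0.46).

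Genes that IL-10 represses in macrophages rose as well. Of 23 genes, 19 were measured, of which 14 went up and 3 down at 4 h. At 24 h 15 went up and 2 down. The medians were 1.61 and 4.05. The chemokine genes Cxcl2 and Ccl3 led the list, with at least 5.49 and 4.94 at 4 h and at least 7.89 and at least 8.28 at 24 h. Tnf and Il6, cytokines named here after their values were seen, rose by 1.15 and at least 4.23 at 4 h and by 2.56 and at least 4.05 at 24 h. The genes that fell at 4 h were Ccl5 (-1.69), Cxcl10 (-1.10) and H2-Aa (at least 0.68 lower on the log2 scale). Cxcl10, an interferon-induced chemokine, was reversed at 24 h, where it rose by 5.53, and Ccl5 rose there by at least 1.73. H2-Aa, a class II antigen-presenting chain, fell further at 24 h (-1.66), together with the costimulatory ligand gene Cd86 (-0.48). Some measured genes stand on 2 lists, so their counts are not separate evidence: of the induced list, Cebpb is also an upstream gene, Socs3 is in the SOCS family, Cd163, Fcgr1, Mrc1 and Msr1 are among the macrophage markers and Il1r2 among the neutrophil markers, and H2-Aa of the repressed list is also a dendritic cell marker.

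**Figure D3:**
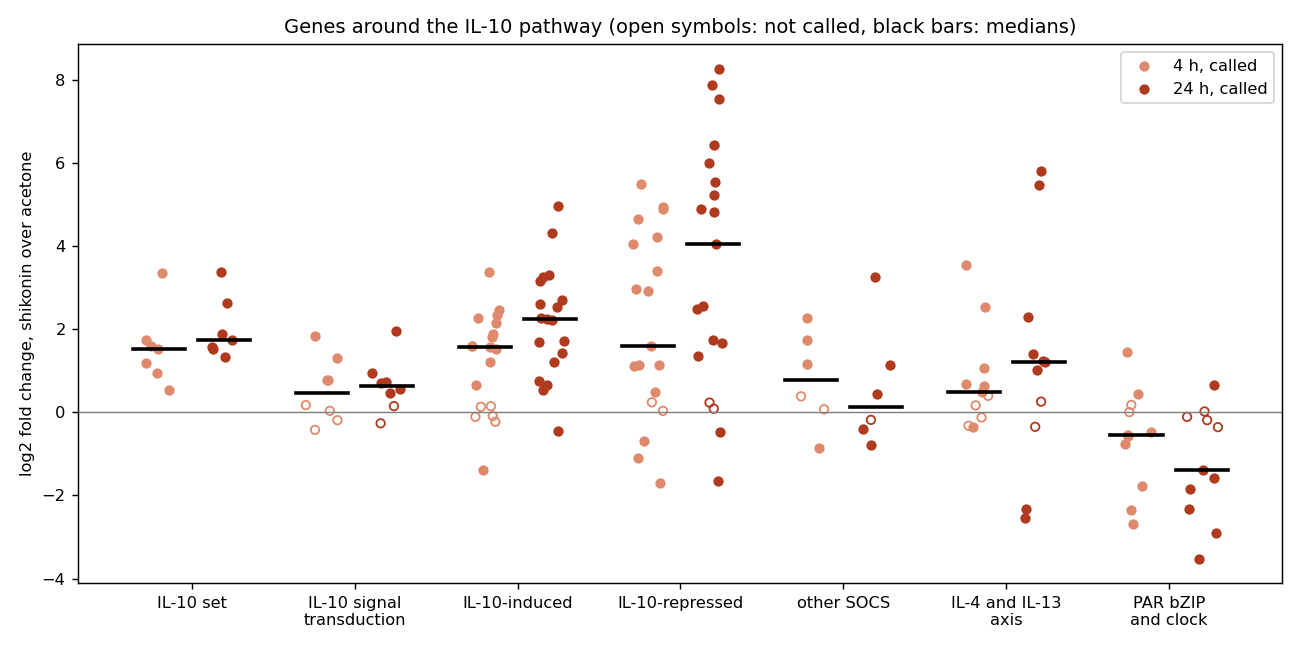
Log2 fold change of shikonin over acetone (vertical axis) for each measured gene of 7 lists, at 4 h (light, left of each pair) and 24 h (dark, right). Filled points passed the limma threshold, open points did not, and black bars are list medians; the 7 IL-10 genes (IL-10 set) lie above 0 at both times, the IL-10-repressed list has its median at 1.61 and 4.05, and the PAR bZIP and clock list lies mostly below 0.

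In the SOCS family, which holds the feedback inhibitors of cytokine receptors, 6 of 7 relatives of Socs1 were measured. Those called were 3 up and 1 down at 4 h, then 3 up and 2 down at 24 h. Socs3, the member that STAT3 induces, rose by 2.28 and 3.27, and its effect was larger at 24 h by 0.98 (limma adjusted p = 7.75e-04), as was that of Socs1. Cish, an inhibitor of STAT5 signaling, rose by 1.75 at 4 h and fell by 0.40 at 24 h. Socs4 rose by 1.17 and 1.14, and Socs6 fell by 0.85 and by 0.78. The family thus had no common direction, with medians of 0.78 and 0.13.

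The PAR factors and clock genes were listed as relatives of Nfil3, since NFIL3 competes with DBP, TEF and HLF for the same DNA sites. Of 13 genes, 11 were measured. The 6 that fell outnumbered the 2 that rose at 4 h and the 1 that rose at 24 h, when 6 also fell, and the medians were -0.55 and -1.38. Dbp fell (-2.69 and -2.90), and so did Tef (-1.78 and -2.32), in the same comparisons in which Nfil3 rose about as strongly at both times. The period gene Per3 fell as well (-2.34 and -3.53). Per1 rose by 1.45 at 4 h and was at -0.19 at 24 h (limma adjusted p = 0.442), Nr1d2, a nuclear receptor of the clock, rose by 0.44 at 4 h (limma adjusted p = 0.0341), and Bhlhe40, a clock repressor, was at 0.18 at 4 h (limma adjusted p = 0.410) and rose by 0.65 at 24 h. These genes also differed between the acetone groups, where 7 were higher and 1 lower at 24 h (median 0.72), the opposite direction to that of Nfil3. Over all probes, 15.5% were higher and 14.2% lower there.

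For the ETS factors and co-repressors, listed as partners of Etv3 and Sbno2, 10 of 14 were measured. At 4 h 3 were called up and 1 down and at 24 h 5 up and 3 down, around medians of 0.25 and 0.27. Spi1, the myeloid ETS factor PU.1, rose by 0.97 and 2.66, Etv5 by 0.97 and 0.71, and Fli1, an ETS factor of blood and endothelial cells, was at 0.25 at 4 h (limma adjusted p = 0.244) and rose by 1.36 at 24 h. Sbno1, the closest relative of Sbno2, was at 0.25 at 4 h (limma adjusted p = 0.149) and fell by 1.14 at 24 h, in contrast to Sbno2, which rose at both times. Hdac2, a histone deacetylase of co-repressor complexes, fell by 0.55 and by 0.79.

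On the IL-4 and IL-13 axis, 11 of 13 genes other than Il4ra were measured. The calls were 6 up and 1 down at 4 h (median 0.49) and 7 up and 2 down at 24 h (median 1.22). The partner chains of IL-4RA rose with it: Il2rg, the common gamma chain, by 0.49 and 1.41, and Il13ra1 by 0.63 and 1.01. Stat6, which carries the IL-4 signal, rose by 0.69 and 1.22. Target genes of this signal in macrophages split. Arg1, the arginase, rose by at least 2.54 and by 5.82, and Chil3, a chitinase-like protein, by 3.54 and 5.49, but Retnla fell by at least 0.36 at 4 h and by at least 2.54 at 24 h. Il13 rose by 1.07 at 4 h and was at -0.35 at 24 h (limma adjusted p = 0.0990). Tslp, an epithelial cytokine, was at -0.12 at 4 h (limma adjusted p = 0.535) and fell by 2.32 at 24 h.

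Markers of leukocytes had no common direction. Those of neutrophils rose at both times, those of monocytes and macrophages mostly at 24 h, and those of Langerhans and dendritic cells mostly fell. Of 6 measured mast cell markers, 3 fell and 1 rose at each time. Of 19 neutrophil markers, 16 were measured, of which 14 rose at 4 h and 15 at 24 h, when 1 (Mpo) fell. Their summed intensity was 95192 to 103766 with acetone and 344981 to 349709 with shikonin at 4 h, and 29053 to 29110 against 358954 to 362463 at 24 h. Like Il10, Il10ra, Nfil3, Socs1 and Il4ra, this sum was lowest on the acetone 24 h arrays, where Mmp8, Ngp and Trem1 were at the floor. S100a8 and Retnlg were saturated with shikonin at 4 h, so the sum there is a lower bound. With acetone at 4 h, S100a8 was the brightest of these markers (mean log2 15.81) and weighs most in that sum.

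Monocyte and macrophage markers (15 of 18 measured) were mixed at 4 h, when 3 rose and 7 fell. At 24 h 9 rose and 1 fell. Their sums were 125164 to 125392 with acetone and 149248 to 150413 with shikonin at 4 h, and 98822 to 99587 against 219047 to 220965 at 24 h. Bright probes weigh most in these linear sums. At 4 h Cd14 rose by at least 3.41 and reached saturation (mean log2 12.52 with acetone and 15.94 with shikonin), although 7 other markers fell. The signed difference of the effects, 24 h less 4 h, was called higher for all 15 (median 1.43), against 21.1% of all probes. For markers that fell at 4 h, a higher difference can also mean a smaller fall at 24 h. Of the 16 neutrophil markers, this difference was called higher for 12 and lower for 2 (median 1.72). Within shikonin-treated skin, 11 macrophage markers were higher at 24 h than at 4 h and none lower (median 1.17). Of the neutrophil markers, 5 were higher there and 3 lower (median 0.16). In acetone-treated skin, 9 markers of each list were lower at 24 h and 1 higher (medians -0.62 for macrophages and -0.89 for neutrophils). Cd163, Fcgr1 and Msr1 were at the floor on the acetone 24 h arrays. Markers of T, NK and B cells (8 of 17 measured) gave 1 call up and 3 down at 4 h and 1 each way at 24 h, and summed to between 2609 and 4144 on the 8 arrays. Of these markers, Cd3d was at the floor on the acetone 24 h arrays, Ncr1 and Nkg7 on those of shikonin 4 h and Cd2 and Nkg7 on those of shikonin 24 h. Of the Langerhans and dendritic cell markers (8 of 12 measured), 5 fell at each time, while 1 was up at 4 h and 3 were up at 24 h (medians -0.57 and -1.76), and their sums went from between 114294 and 139715 with acetone to between 85918 and 93668 at 4 h and between 31176 and 34132 at 24 h with shikonin. Mast cell markers (6 of 8 measured) gave 1 call up, Hdc, and 3 down at each time. Most keratinocyte markers fell (9 of 15 at 4 h, when 3 rose, and 11 of 15 at 24 h, when 1 rose), and their sums dropped to between 164572 and 166965 at 4 h and between 85635 and 85890 at 24 h with shikonin. Krt10 and Lor reached saturation with acetone at 4 h and Krt14 with shikonin at 4 h, so the keratinocyte sums of these groups are lower bounds. The part of these cell types in the rise of the IL-10 genes was not tested.

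**Figure D4:**
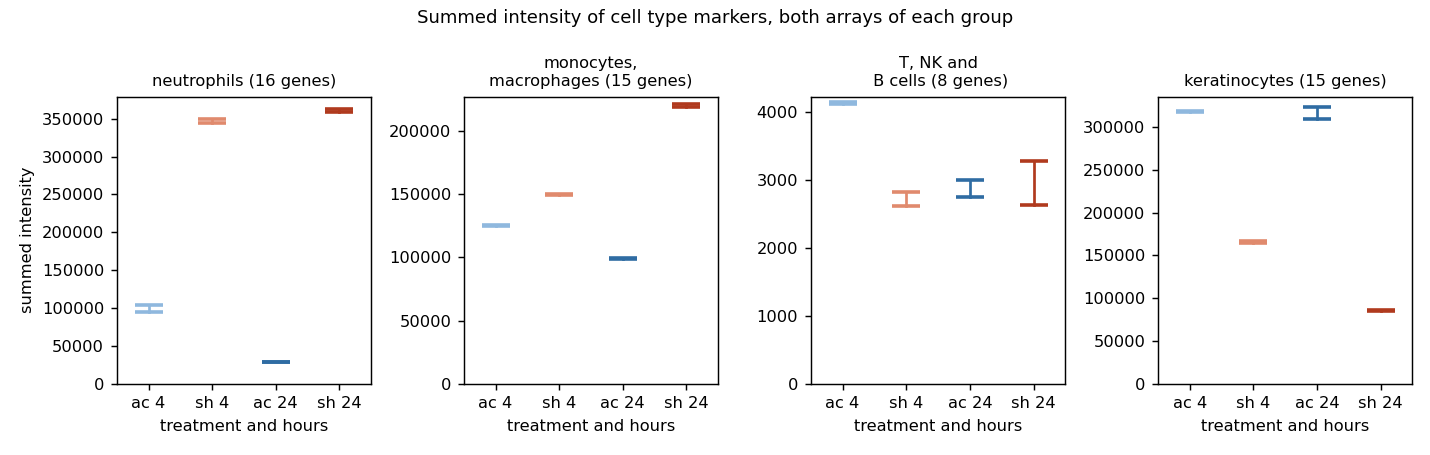
Summed intensity of the measured markers of 4 cell types (vertical axis, intensity units), with the 2 arrays of each group as bars joined by a line (ac, acetone; sh, shikonin; 4 or 24, hours). Neutrophil sums lie between 344981 and 362463 in both shikonin groups. Macrophage sums are highest and keratinocyte sums lowest in the shikonin 24 h group. In the shikonin 4 h group, S100a8, Retnlg and Cd14 were saturated, so the neutrophil and macrophage sums there are lower bounds. Krt10 and Lor reached saturation in the acetone 4 h group and Krt14 in the shikonin 4 h group, so these keratinocyte sums are lower bounds too. Vertical ranges differ between panels and all start at 0.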

How the data were processed

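Total RNA of abdominal skin (2.5 µg) was amplified by the authors to Cy5-labelled antisense RNA and hybridized to the Mouse OneArray, which was read with GenePix 4.1. The values deposited by the authors are linear intensities, with near-equal quantiles on the 8 arrays, from which a normalization between arrays was inferred. Spotfire was used by the authors to call genes present or absent. Whether that call left 16069 of 29922 probes blank, and the methods of normalization and background correction, were not given in the sources used here.

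Symbols were current for 9712 measured probes, updated for 1814 and kept for 24, and 2303 had none. A gene was represented by its probe of highest mean. After the floor, log2 values were fitted with limma 3.58.1 (lmFit, eBayes with an intensity trend) in R 4.3.3 as 4 group means (residual degrees of freedom 4, prior at least 5.02). Values of 65000 or above counted as saturated. The calculation was tested on simulated data. The 8 genes and the lists were chosen with earlier results of these data known. The text names all members, the 2 highest and 2 lowest called genes of each list per time, genes on which the reading of a member turns, and the 3 genes most like each member by Pearson's r. Alternatives covered normalization, floor, dim probes, trend, array weights, replicate block, left-out arrays, probe choice, thresholds, and times fitted alone. Controls of the other time were tried after seeing the data. Plots were made with Python 3.11.15 and matplotlib 3.10.9. Micro-RNA, PCR and staining data were not analysed here.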

Additional observations from a re-analysis of the deposited data

Results flagged for a closer look

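For 3 genes the effect of shikonin differed between the times by the interaction term of the limma fit. The effect at 24 h exceeded that at 4 h by 1.04 on the log2 scale for Il10rb, by 0.95 for Socs1 and by 1.12 for Il4ra. The dimmer probe of Socs1, which was not called at 4 h, had a difference of 1.03. In each case both shikonin arrays lay above both acetone arrays at 24 h, an order that 38.3% of all probes had. The difference itself, 24 h less 4 h, was called higher for 21.1% of all probes.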

How the results depend on the processing

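At 24 h all 7 measured genes rose in every alternative that gave each of them a value, apart from Il10 with the floor at the 25th percentile. Leaving out the dimmer 50% of probes left no value for Il10. At 4 h the number that rose was 4 under the 2-fold criterion and 6 to 7 with any 1 array left out (the call lost was that of Il10rb), and 6 at a threshold of 0.01 (without Il10rb) and with the floor at the 25th percentile (without Il10). The Socs1 change at 4 h reversed to -0.14 on the dimmer probe. The number lower in acetone at 24 h than at 4 h went from 2 to 1 with the floor at the 25th percentile, the replicate block or a threshold of 0.01, rose to 3 with no floor, and was 1 to 2 with 1 array left out. The number higher in shikonin at 24 h than at 4 h went from 3 to 1 at a threshold of 0.01 and was 1 to 3 with 1 array left out, and the number lower went from 2 to 1 with the raised floor, to 0 at 0.01, and was 0 to 2 with 1 array left out. The number with a smaller effect at 24 h was 0 to 1 with 1 array left out (1, Sbno2, without acetone 24 h replicate 2), and the number with a larger effect was 3 with any 1 array left out and 4 with no floor (Il10 added). The cause of these changes was not tested.

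When each shikonin group was set against acetone of the other time, a choice made after seeing the data, 7 genes rose at both times (24.3% of all probes at 4 h and 27.8% at 24 h), with log2 changes between 0.44 (Il10rb) and 3.95 (Nfil3) at 4 h and between 1.21 (Sbno2) and 2.79 (Nfil3) at 24 h. Same-numbered arrays of acetone and shikonin deviated together with r of -0.04 at 4 h and 0.21 at 24 h, so the numbers were not taken as pairs in the fits, and only the 2-fold criterion used them. With the replicate block, 7 genes rose at both times, 2899 probes were higher at 4 h and 4075 at 24 h (2936 and 4022 without it), and the Nfil3 call between the acetone groups was lost (limma adjusted p = 0.0517). With 2 arrays a group, the precision is limited by their number, and Il10 lay near the floor in acetone-treated skin.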
